A study of Mus musculus with 16 samples.

Results

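Cadherins, protocadherins and the other synaptic adhesion molecules measured here were 80 genes, chosen by name out of 13180 in the table. They were the genes whose symbol begins with Pcdh, Cdh and a digit, Tenm, Nrxn, Nlgn, Lrrtm, Slitrk, Cntnap, Flrt or Adgrl, and they held 95 of the 20372 probe sets of the table. Each probe set kept was annotated to 1 gene, and 2 more probe sets that several such genes share were left out. A gene with several probe sets was represented by that of the highest mean. A comparison needed a value above the median of the array in at least 3 arrays, which 52 of the 80 genes passed, and 28 did not pass.

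The hippocampi came from 16 wildtype C57BL/6 mice, all male and 3 months old, with 1 hippocampus per array. There were 3 mice given kainic acid (20 mg/kg), 3 given SL327 (50 mg/kg) 1 h before kainic acid, 3 given SL327 alone, 3 given vehicle and 4 left untreated. Kainic acid activates glutamate receptors and provokes seizures, and SL327 inhibits MEK, the kinase that activates ERK. Tissue of the seizing mice was collected 1 h after seizures began, and that of the other injected mice at a time matched to it. The vehicle is PBS in the labels and a mixture of DMSO and PBS in the methods, so what the vehicle mice received is uncertain. By the methods kainic acid was dissolved in PBS and SL327 in DMSO mixed with PBS. Kainic acid mice are not said to have received DMSO. Against kainic acid mice, and against vehicle mice if these received PBS, SL327 and its solvent cannot be told apart. If vehicle mice received DMSO and kainic acid mice did not, kainic acid minus vehicle differs by DMSO too. Seizures and solvent then cannot be told apart there, nor in any comparison built on that difference. Affymetrix mouse exon arrays read the RNA, and every level below is a log2 intensity as deposited, so that a difference of 1 is a doubling of intensity. Levels of different probe sets depend on their probes, so a mean level was used only to choose a probe set or a gene to name and not to rank expression.

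Cadherins join neighbouring membranes by binding the same or a like cadherin on the other side, and catenins tie them to actin inside the cell. Protocadherins are their relatives, some encoded in gene clusters that give each neuron its own combination and others in single genes. Neurexins of the presynaptic membrane bind neuroligins and the leucine-rich repeat proteins of the Lrrtm family across the synaptic cleft, latrophilins (Adgrl) bind teneurins and FLRT proteins, and Slitrk proteins bind receptor tyrosine phosphatases. In the hippocampus these molecules are known for guiding which cells connect and for shaping excitatory and inhibitory synapses.

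RefSeq promoter windows of mouse build GRCm38.p6, which run from 250 bases before to 50 bases after a gene's start, were found for 41 of the 80 genes, as 52 windows. The windows of 3 genes that were higher with kainic acid, Pcdh8, Adgrl4 and Nlgn2, are shown. For Lrrtm2, which was higher too, no window was found, and windows of genes that fell are not shown. Capitals mark matches, on either strand, to the core letters TGACG of the cAMP response element, the TATA box letters TATAAA or the CCAAT box. The windows are Pcdh8 at chr14:79771263-79771562 on the minus strand, Adgrl4 at chr3:151437632-151437931 on the plus strand and Nlgn2 at chr11:69837735-69838034 on the minus strand.
Pcdh8: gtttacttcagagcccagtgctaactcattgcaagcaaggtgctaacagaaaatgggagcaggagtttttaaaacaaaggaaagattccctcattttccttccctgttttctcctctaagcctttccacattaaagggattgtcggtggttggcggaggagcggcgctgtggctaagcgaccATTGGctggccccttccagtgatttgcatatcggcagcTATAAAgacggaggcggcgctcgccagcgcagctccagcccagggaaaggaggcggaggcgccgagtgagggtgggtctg
Adgrl4: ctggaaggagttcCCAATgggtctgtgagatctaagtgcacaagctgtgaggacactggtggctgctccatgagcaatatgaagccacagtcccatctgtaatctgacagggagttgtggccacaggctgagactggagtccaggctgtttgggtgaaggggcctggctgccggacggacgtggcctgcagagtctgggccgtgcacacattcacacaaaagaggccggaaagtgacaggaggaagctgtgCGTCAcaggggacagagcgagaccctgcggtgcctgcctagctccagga
Nlgn2: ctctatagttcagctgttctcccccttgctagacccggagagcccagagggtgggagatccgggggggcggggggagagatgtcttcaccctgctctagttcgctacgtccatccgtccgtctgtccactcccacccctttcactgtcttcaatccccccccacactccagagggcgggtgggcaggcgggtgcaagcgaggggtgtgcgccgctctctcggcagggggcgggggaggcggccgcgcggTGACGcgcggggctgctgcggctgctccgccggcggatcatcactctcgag
The Pcdh8 window had TATAAA at -30 and a reversed CCAAT at -68, and the one of Adgrl4 had a CCAAT at -237 and reversed core letters at 2, as positions of the first base of the match relative to the start. The window of Nlgn2 had the core letters at -1. None of the 3 held the full element TGACGTCA, which contains the core letters on both strands and occurred in 2 of the 52 windows (3.85%, Slitrk2 and Tenm3) against 1.79% of all 32851 RefSeq windows. The core letters occurred in 10 (19.2%) against 20.8%, and the AP-1 letters TGANTCA in 1 (1.92%, Nrxn3) against 7.81%. TATAAA was found in 7 (13.5%) against 13.6%, and CCAAT in 20 (38.5%) against 37.4%. The CArG box of serum response factor and the letters GCGTGGGCG bound by EGR proteins were found in 0 of the 52 windows, against 1.63% and 0.612% of all windows. A match to letters is a description of the window and not a binding site.

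The kainic acid mice had high immediate early genes. Arc, an immediate early gene of dendrites, was at 12.29, 12.40 and 12.35 in kainic acid mice, 10.53, 9.46 and 10.43 in SL327 with kainic acid mice, and 9.90, 9.99 and 9.90 in vehicle mice. One array stood apart, replicate 2 of SL327 with kainic acid, where Npas4, a transcription factor induced by neuronal activity, was at 8.13 against 11.99 and 12.27 in the other mice of that group, and Fos at 7.38 against 9.29 and 8.95. Some results of its group are given with and without that mouse where the probe set of the highest mean is used, and others only with it. Pan-neuronal markers were present, with 6 of 6 in the table and 5 tested, and their median stayed between -0.12 and 0.07 of the vehicle mean in every array. Of the 5, Syn1, a synaptic vesicle protein, was lower with kainic acid (-0.16, adjusted p = 0.017) and with SL327 alone (-0.24, adjusted p = 0.009), and its part in the adhesion genes' changes was not tested. In whole tissue, fewer cells of a type and less RNA per cell cannot be told apart.

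Kainic acid was compared with vehicle to ask which adhesion genes had changed 1 h into seizures. The protocadherin Pcdh8 rose 2.77-fold, Adgrl4, Lrrtm2 and Nlgn2 rose by 1.39-fold or less, and Lrrtm4, Pcdh20 and Pcdhb12 fell. In limma, 4 of the 52 genes were higher (7.69%) and 3 lower (5.77%) at an adjusted p under 0.05, adjusted over all 8520 probe sets tested. Over all probe sets 7.41% were higher and 12.2% lower, so the share of adhesion genes that rose was near that of the table. The count of lower genes was not stable, at 0 to 6 with each array left out in turn. It was 7 with untreated mice in place of vehicle mice or both pooled, where 24.8% and 24.2% of all probe sets were lower. The median difference was -0.05 over the 52 genes and -0.05 over all probe sets. The arrays of both groups did not overlap for 17 genes, 5 above and 12 below vehicle (32.7%), against 40.8% of all probe sets in either direction.

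Pcdh8 (probe set 6826292), known in rat as arcadlin, a protocadherin that neuronal activity induces and that draws N-cadherin from the synaptic membrane, changed most. Its levels were 8.42, 8.81 and 8.41 in kainic acid mice and 7.58, 7.11 and 7.82 in SL327 with kainic acid mice. SL327 mice were at 7.05, 7.13 and 7.00, vehicle mice at 7.08, 7.15 and 7.00, and untreated mice at 6.99, 6.99, 7.17 and 6.99. All kainic acid mice thus lay above every other mouse, and SL327, vehicle and untreated mice overlapped. With means of 8.55 ± 0.22 in kainic acid mice and 7.07 ± 0.08 in vehicle mice (SD, n = 3 each), the difference was 1.47 (SE 0.14, adjusted p = 6.74e-06), a 2.77-fold rise. The gene passed the filter only through the 3 kainic acid arrays and 2 SL327 with kainic acid arrays, the only one of the 52 to do so, so its presence among the genes tested depended on the rise itself.

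Lrrtm2 (6864583), a postsynaptic ligand of neurexins at excitatory synapses, was at 9.17, 9.22 and 9.05 in kainic acid mice, 8.75, 8.73 and 8.69 in SL327 with kainic acid mice, and 8.81, 8.70 and 8.81 in SL327 mice. In vehicle mice it was at 8.81, 8.89 and 8.77, and in untreated mice at 8.94, 9.12, 8.92 and 8.93. Kainic acid mice lay above all vehicle mice, but 1 untreated mouse lay within their range. The rise was 0.32 (SE 0.06, adjusted p = 0.00233), or 1.25-fold, over vehicle mice, and 0.17 (adjusted p = 0.0342) over untreated mice. Its relative Lrrtm4 (6947211), which binds heparan sulphate proteoglycans as well as neurexins and is prominent in dentate granule cells, went the other way. It was at 8.62, 8.51 and 8.57 in kainic acid mice, 8.85, 8.73 and 9.11 in SL327 with kainic acid mice, and 8.83, 8.70 and 8.72 in SL327 mice. Vehicle mice were at 8.94, 8.87 and 8.79 and untreated mice between 8.83 and 8.90, so every kainic acid mouse was below every other mouse. With kainic acid Lrrtm4 fell by 0.30 (SE 0.08, adjusted p = 0.0145). The adjusted p was 0.0655 without vehicle replicate 1 and 0.0634 without kainic acid replicate 2. The family's remaining member tested, Lrrtm3, differed by -0.10 (adjusted p = 0.60).

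Lrrtm4's fall stood beside a fall in markers of dentate granule cells. Of 7 such markers 6 were in the table and tested, 4 of the 6 were lower with kainic acid, and the median of the list, relative to the vehicle mean, lay between -0.78 and -0.48 in kainic acid mice, -0.24 and 0.29 in SL327 with kainic acid mice, and -0.16 and 0.09 in vehicle mice. The same median for 7 interneuron markers, 6 of them tested, was between 0.17 and 0.23 in kainic acid mice and between -0.07 and 0.08 in vehicle mice. Only 1 of the 6 was higher with kainic acid in limma. The part of either list in the adhesion genes' changes was not tested.

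Nlgn2 (6789351), the neuroligin of inhibitory synapses, was at 9.64, 9.72 and 9.57 in kainic acid mice, 9.61, 9.49 and 9.43 in SL327 with kainic acid mice, and 9.56, 9.54 and 9.53 in SL327 mice. Vehicle mice were at 9.36, 9.39 and 9.38, and untreated mice at 9.63, 9.81, 9.45 and 9.43. The 3 vehicle mice were thus the lowest of all 16, and the kainic acid mice lay within the range of the untreated ones. The rise of 0.26 (SE 0.08, adjusted p = 0.0364) over vehicle was a difference of 0.06 over untreated mice (adjusted p = 0.566), and it did not pass without any 1 of the vehicle mice or kainic acid replicate 1 or 2 (adjusted p up to 0.14). Nlgn1 and Nlgn3, neuroligins of excitatory and of both kinds of synapses, differed by -0.11 (adjusted p = 0.26) and -0.11 (adjusted p = 0.15).

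Adgrl4 (6902440) is grouped with the latrophilins by name but is known as a receptor of endothelial cells, so the naming rule brings in at least 1 gene that is not chiefly neuronal. It was at 7.94, 8.08 and 7.72 in kainic acid mice, 7.58, 7.69 and 7.59 in SL327 with kainic acid mice, and 7.69, 7.58 and 7.73 in SL327 mice. In vehicle mice its levels were 7.36, 7.53 and 7.43, and in untreated mice they ran between 7.26 and 7.52, below the lowest kainic acid mouse. The rise was 0.47 (SE 0.09, adjusted p = 0.0016), or 1.39-fold. Adgrl4 passed the filter through 3 arrays of each drug group, with 1 vehicle and 1 untreated array above the median. Its place among the genes tested thus rested on the groups where it was higher. Markers of endothelium and mural cells, 6 of 6 in the table and 2 tested, had a median between -0.08 and 0.00 in kainic acid mice and between -0.05 and 0.05 in vehicle mice, and 0 of the 2 passed the test. The part of such cells in the rise of Adgrl4 was not tested. The neuronal latrophilins tested, Adgrl1 and Adgrl3, differed by -0.03 (adjusted p = 0.61) and -0.04 (adjusted p = 0.64).

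**Figure D1:**
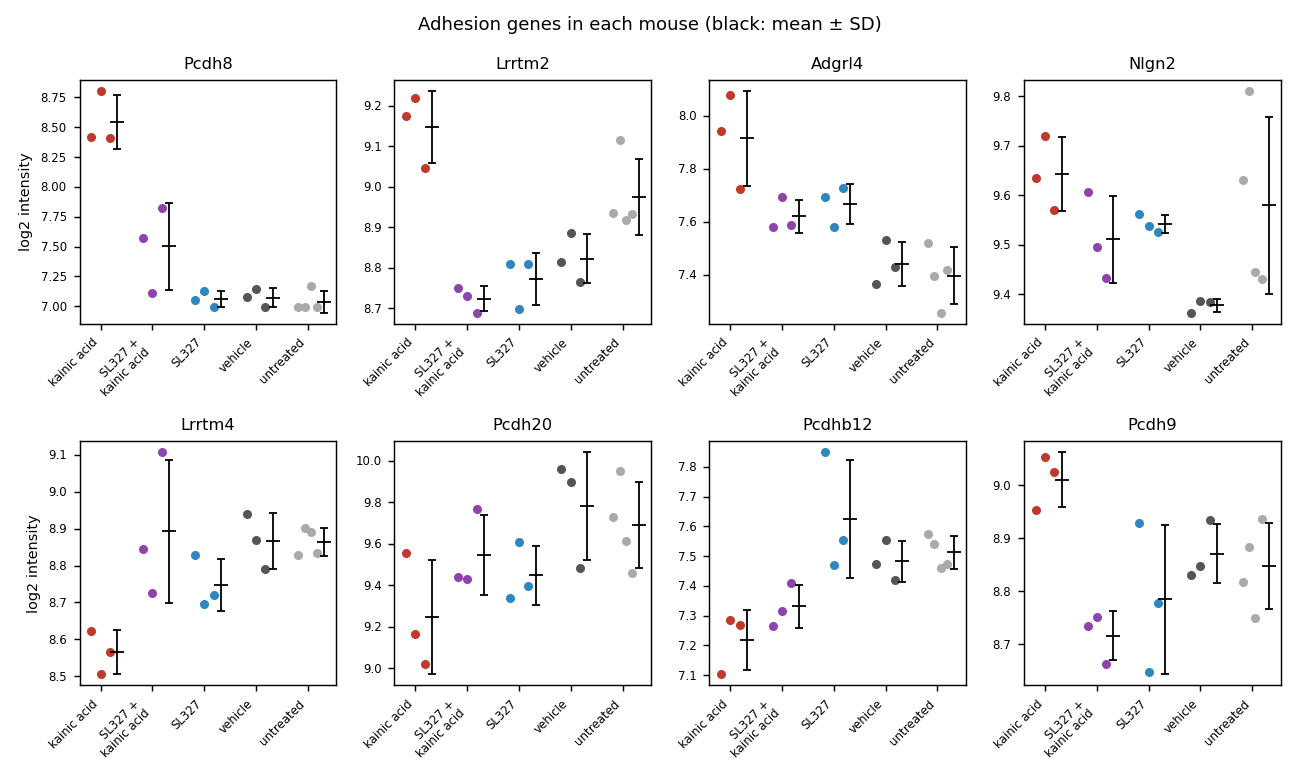
Log2 intensity of 8 adhesion genes in each of the 16 mice, by group, with each panel on its own axis that does not start at 0. Coloured points are mice, and black marks give the mean ± SD of 3 mice (4 untreated). Pcdh8 reaches 8.41 to 8.81 in kainic acid mice and 7.00 to 7.15 in vehicle mice, while Lrrtm4 is at 8.51 to 8.62 in kainic acid mice and 8.79 to 8.94 in vehicle mice.

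Protocadherins on their own gave both signs. Of the 7 non-clustered ones tested, Pcdh8 rose and Pcdh20 fell, and the differences of the 7 ran between -0.53 and 1.47 with a median of 0.09. Pcdh20 (6826611) was at 9.55, 9.16 and 9.02 in kainic acid mice and 9.96, 9.90 and 9.48 in vehicle mice, a fall of 0.53 (SE 0.16, adjusted p = 0.0313). The highest kainic acid mouse lay above the lowest vehicle mouse, so these groups overlapped, and the other groups held 9.34 to 9.95. Without vehicle replicate 1 or 2 or kainic acid replicate 2 or 3 the call was lost, with an adjusted p of at most 0.136. Of 23 clustered protocadherins 13 were tested, and 1 of them changed. This was Pcdhb12 (6860185) of the beta cluster, at 7.10, 7.29 and 7.27 in kainic acid mice, 7.27, 7.32 and 7.41 in SL327 with kainic acid mice, 7.85, 7.47 and 7.55 in SL327 mice, and 7.47, 7.55 and 7.42 in vehicle mice. Both groups that seized lay below all vehicle mice, and the fall with kainic acid was 0.26 (SE 0.08, adjusted p = 0.0391). It passed the filter through 2 SL327, 2 vehicle and 2 untreated arrays, with 0 arrays of either seizing group above the median, so that its place among the genes tested rested on the groups where it was higher. The call was lost with no filter (adjusted p = 0.0545) and without any 1 of the kainic acid or vehicle mice (adjusted p up to 0.139). Genes of this cluster are close copies of each other, so a probe set may read more than 1 of them, and the values of single members are uncertain. The 13 clustered genes ranged between -0.26 and 0.23, with 8 below and 5 above 0.

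Just inside the threshold was Pcdhb12 and just outside it Tenm2, at -0.49 (adjusted p = 0.0592). The 9 classical and type II cadherins tested ran between -0.27 and 0.09, 7 of them below 0, with 0 past the threshold in limma (2 at an unadjusted p under 0.05) and the smallest adjusted p at 0.0601, for Cdh11. N-cadherin (Cdh2), the partner of Pcdh8 in rat neurons, differed by -0.05 (SE 0.06, adjusted p = 0.53). In 4 families no gene passed the threshold in any comparison with vehicle or between the seizing groups, and of each the member with the highest mean is given. Nrxn2, a neurexin, differed by 0.04, Slitrk3, an organizer of inhibitory synapses, by 0.02, Cntnap1, which anchors the paranodal junctions of myelinated axons, by -0.02, and Flrt1, a ligand of latrophilins and Unc5 receptors, by 0.04. The adjusted p of these 4 was between 0.58 and 0.93.

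**Figure D2:**
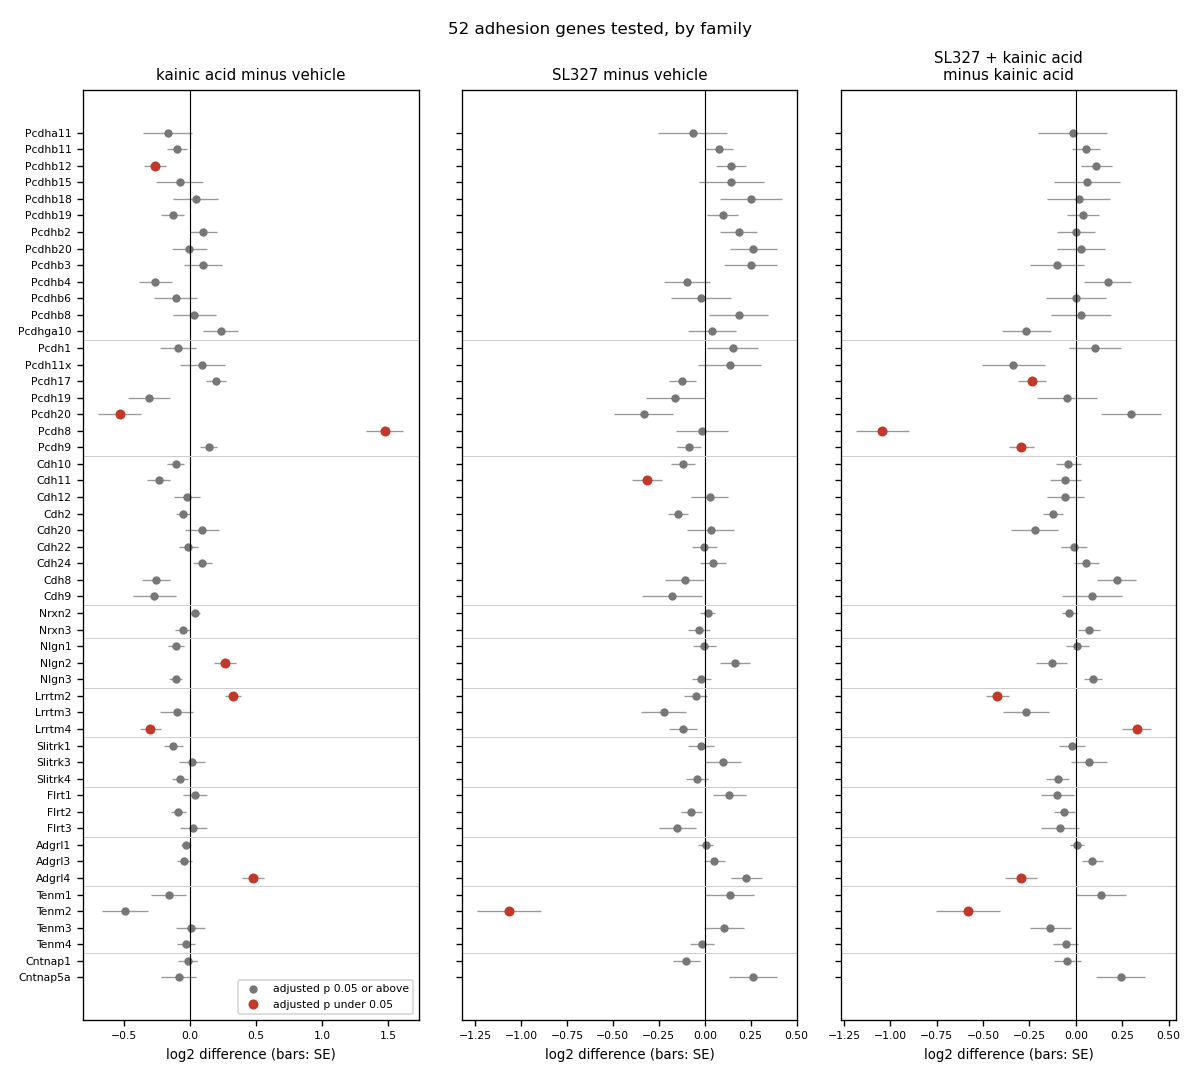
Log2 difference of each of the 52 genes tested, by family from top to bottom, for kainic acid minus vehicle, SL327 minus vehicle and SL327 with kainic acid minus kainic acid. Points are limma estimates, bars are ± 1 SE, and red points have an adjusted p under 0.05. Most genes lie near 0, with Pcdh8 at 1.47 and -1.04 and Tenm2 at -1.07 and -0.58 farthest out.

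SL327 alone was compared with vehicle to ask what MEK inhibition did without seizures. Tenm2 and Cdh11 fell, and 0 of the 52 genes rose in limma, 1 being higher at an unadjusted p under 0.05. The 2 lower genes are 3.85% of those tested, where the whole table had 5.48% higher and 0.833% lower probe sets. The median difference was 0.00 over the 52 genes and 0.04 over all probe sets. Groups did not overlap for 8 genes, 4 above and 4 below vehicle (15.4%), against 34.5% of all probe sets.

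Tenm2 (6787300) encodes a teneurin, a large membrane protein that binds latrophilins across the synapse. Its levels were 8.70, 8.21 and 8.10 in SL327 mice and 8.18, 8.39 and 8.43 in SL327 with kainic acid mice. Kainic acid mice had 9.23, 8.65 and 8.85, vehicle mice 9.28, 9.55 and 9.37, and untreated mice 9.50, 9.04, 9.28 and 9.54. Every mouse that received SL327 was thus below every vehicle and untreated mouse, and the kainic acid mice overlapped both the SL327 mice and the untreated mice. SL327 mice averaged 8.34 ± 0.32 and vehicle mice 9.40 ± 0.14 (SD, n = 3 each), a fall of 1.07 (SE 0.17, adjusted p = 0.00899), to 0.478 of the vehicle intensity. The same probe set fell by 1.07 (SE 0.17, adjusted p = 0.0113) in SL327 with kainic acid mice relative to vehicle mice, a comparison that shares the vehicle arrays. That second call was lost without vehicle replicate 2 or 3 or SL327 with kainic acid replicate 1 (adjusted p up to 0.0644).

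A second probe set of Tenm2 (6787293) did not follow. It was at 7.91, 7.77 and 7.77 in SL327 mice, 7.69, 7.81 and 7.62 in SL327 with kainic acid mice, 7.73, 7.75 and 7.75 in kainic acid mice, and 7.68, 7.97 and 7.74 in vehicle mice. These levels overlapped, and the difference between SL327 and vehicle mice was 0.02 (SE 0.07, adjusted p = 0.90). Which exons either probe set reads is not given in the sources used here. The other teneurins tested, Tenm1, Tenm3 and Tenm4, differed by 0.13, 0.11 and -0.02 with SL327, with adjusted p between 0.60 and 0.92.

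Cdh11 (6984824), a type II cadherin, was at 7.58, 7.46 and 7.29 in SL327 mice, 7.44, 7.46 and 7.48 in SL327 with kainic acid mice, and 7.53, 7.47 and 7.55 in kainic acid mice. Vehicle mice were at 7.74, 7.80 and 7.73, and untreated mice at 7.85, 8.09, 7.70 and 7.82. All 9 mice that received a drug were below all 7 that did not. Above the array median were 3 kainic acid, 3 vehicle and 4 untreated arrays, but 1 SL327 and 1 SL327 with kainic acid array. The place of Cdh11 among the genes tested thus rested mainly on mice without SL327. The fall with SL327 was 0.31 (SE 0.08, adjusted p = 0.0412), and the call was lost in 15 of 25 alternatives, 12 of them single arrays left out, controls included, with an adjusted p of up to 0.171 without SL327 replicate 3. Relative to vehicle mice it differed by -0.24 in kainic acid mice (adjusted p = 0.0601) and by -0.30 in SL327 with kainic acid mice (adjusted p = 0.122). Markers of the choroid plexus, a tissue beside the hippocampus, varied between mice, their median relative to vehicle running between 0.23 and 1.06 in SL327 mice, -0.26 and 0.41 in vehicle mice, and -0.32 and 2.04 in untreated mice (7 of 8 in the table, 5 tested, 0 called). Their part in the changes of Tenm2 and Cdh11 was not tested.

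**Figure D3:**
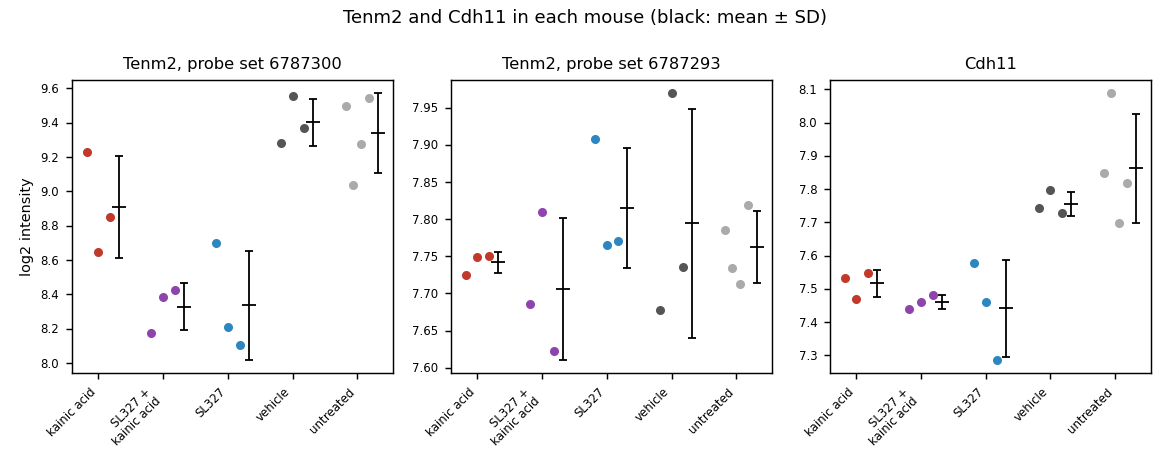
Log2 intensity of both Tenm2 probe sets and of Cdh11 in each of the 16 mice, by group, each panel on its own axis that does not start at 0. Points are mice and black marks the mean ± SD. Tenm2 probe set 6787300 is at 8.10 to 8.70 in SL327 mice and 9.28 to 9.55 in vehicle mice, while the second probe set shows no such gap.

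SL327 with kainic acid was compared with vehicle, a contrast that holds the effect of the inhibitor and that of the seizures together. Besides Tenm2, which had also fallen with SL327 alone, no gene passed the threshold, so 0 of 52 were higher (2 at an unadjusted p under 0.05) and 1 was lower (1.92%) in limma, against 0.681% and 0.188% of all probe sets. Pcdh8 differed by 0.43 (SE 0.14, adjusted p = 0.187). When the mouse with low immediate early genes was left out, it rose by 0.63 (adjusted p = 0.012), which made the counts 1 higher and 1 lower. The share of all probe sets without that mouse is not given. The groups did not overlap for 16 genes, 2 above and 14 below vehicle (30.8%), against 23% of all probe sets. The median difference over the 52 genes was -0.06 and over all probe sets 0.01.

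Against SL327 alone, SL327 with kainic acid gave 0 calls among the 52 genes and 0% of all probe sets in limma. At an unadjusted p under 0.05 there were 7 genes (13.5%), 1 higher and 6 lower, against 10.5% of all probe sets. Pcdh8 differed by 0.44 (SE 0.14, adjusted p = 0.302), and by 0.64 (adjusted p = 0.0223) when the same mouse was left out.

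SL327 with kainic acid against kainic acid alone compares mice that seized with and without the inhibitor, given in its solvent. Genes that had risen with seizures, Pcdh8, Lrrtm2 and Adgrl4, were lower under the inhibitor, Lrrtm4 was higher, and Pcdh9, Pcdh17 and Tenm2 were lower too. In limma 1 of 52 genes was higher (1.92%) and 6 were lower (11.5%), while all probe sets had 13.1% higher and 5.86% lower. Without the mouse with low immediate early genes 1 was higher and 4 were lower, and the share of all probe sets in that fit is not given. The arrays did not overlap for 11 genes, 3 above and 8 below kainic acid (21.2%), against 37.9% of all probe sets. This comparison and that of kainic acid with vehicle share the kainic acid arrays, so opposite signs in them are not separate evidence.

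Pcdh8 was 1.04 lower with SL327 (SE 0.14, adjusted p = 0.000242), to 0.485 of its level in kainic acid mice, and 0.85 lower when the mouse with low immediate early genes was left out (adjusted p = 0.00036). Lrrtm2 fell by 0.42 (SE 0.06, adjusted p = 0.000418), and the SL327 with kainic acid mice lay below all vehicle mice too. Adgrl4 fell by 0.29 (SE 0.09, adjusted p = 0.0269), and Lrrtm4 rose by 0.33 (SE 0.08, adjusted p = 0.0107), with all 3 SL327 with kainic acid mice above all 3 kainic acid mice. Adgrl4 was past the threshold no longer without kainic acid replicate 1 or 2 or SL327 with kainic acid replicate 1 or 3 (adjusted p up to 0.129), and Lrrtm4 without kainic acid replicate 2 (0.0504). Nlgn2 differed by -0.13 (SE 0.08, adjusted p = 0.28) and its groups overlapped.

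Pcdh9 (6826742), a non-clustered protocadherin of neurons, was at 8.73, 8.75 and 8.66 in SL327 with kainic acid mice and 8.95, 9.05 and 9.02 in kainic acid mice, a fall of 0.29 (SE 0.07, adjusted p = 0.00865). Vehicle mice, at 8.83, 8.85 and 8.93, lay between both groups. Pcdh17 (6820752), a relative found at synapses, was at 7.81, 7.70 and 7.70 in SL327 with kainic acid mice and 8.02, 8.08 and 7.81 in kainic acid mice, so that the groups met at 7.81. It fell by 0.24 (SE 0.07, adjusted p = 0.0408), and the call was lost without 7 of the 16 arrays, with a difference of -0.21 (adjusted p = 0.109) when the mouse with low immediate early genes was left out and -0.18 (adjusted p = 0.172) without kainic acid replicate 2. Its other probe set (6820768) was at 7.82, 6.30 and 7.88 in SL327 with kainic acid mice, 8.20, 8.63 and 8.03 in kainic acid mice, and 7.53, 7.16 and 7.53 in vehicle mice. Kainic acid mice lay above both other groups there, and the low value was again that of replicate 2. The differences of 0.88 for kainic acid minus vehicle (SE 0.36, adjusted p = 0.10) and -0.95 for SL327 with kainic acid minus kainic acid (SE 0.36, adjusted p = 0.079) did not pass the threshold. Their values without that mouse, which also enters the shared spread, are not given.

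Tenm2 was 0.58 lower in SL327 with kainic acid mice than in kainic acid mice (SE 0.17, adjusted p = 0.0305), with no overlap of the groups. The difference did not pass without kainic acid replicate 1 (-0.42, adjusted p = 0.104) or 3, or without any 1 of the SL327 with kainic acid mice, and was -0.61 (adjusted p = 0.0559) when the mouse with low immediate early genes was left out. N-cadherin lay just outside the threshold among the members, at -0.12 (adjusted p = 0.134).

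Whether the response to kainic acid itself differed with the inhibitor was tested by the interaction, the change of SL327 with kainic acid over SL327 minus that of kainic acid over vehicle. It was negative for Pcdh8, at -1.03 (SE 0.20, adjusted p = 0.00765), for Adgrl4, at -0.52 (SE 0.12, adjusted p = 0.0212), and for Lrrtm2, at -0.37 (SE 0.09, adjusted p = 0.0218). It was positive for Lrrtm4, at 0.45 (SE 0.11, adjusted p = 0.0294). These are 3 lower (5.77%) and 1 higher (1.92%) of the 52 genes in limma, against 3.78% and 1.98% of all probe sets. Leaving out 1 array ended the call for Lrrtm2 in 6 cases, for Lrrtm4 in 6 and for Adgrl4 in 4, with an adjusted p of at most 0.0795, and for Pcdh8 in 0 of 16. For Tenm2 the interaction was 0.49 (SE 0.24, adjusted p = 0.265), and for Cdh11 0.26 (SE 0.12, adjusted p = 0.221). The difference of SL327 from vehicle enters the interaction. In limma it was -0.01 for Pcdh8 (adjusted p = 0.97), 0.23 for Adgrl4 (0.129), -0.05 for Lrrtm2 (0.69) and -0.12 for Lrrtm4 (0.40). For Adgrl4 all SL327 mice lay above all vehicle mice.

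Vehicle and untreated mice gave 0 calls among the 52 genes and 0% of all probe sets in limma, with 5 genes (9.62%, 1 higher and 4 lower in vehicle mice) and 6.68% of all probe sets at an unadjusted p under 0.05. Among them Lrrtm2 differed by -0.15 and Nlgn2 by -0.20, each with all vehicle mice below all untreated mice. The 1 higher gene was Pcdh19, by 0.36, where the arrays of both groups overlapped.

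**Figure D4:**
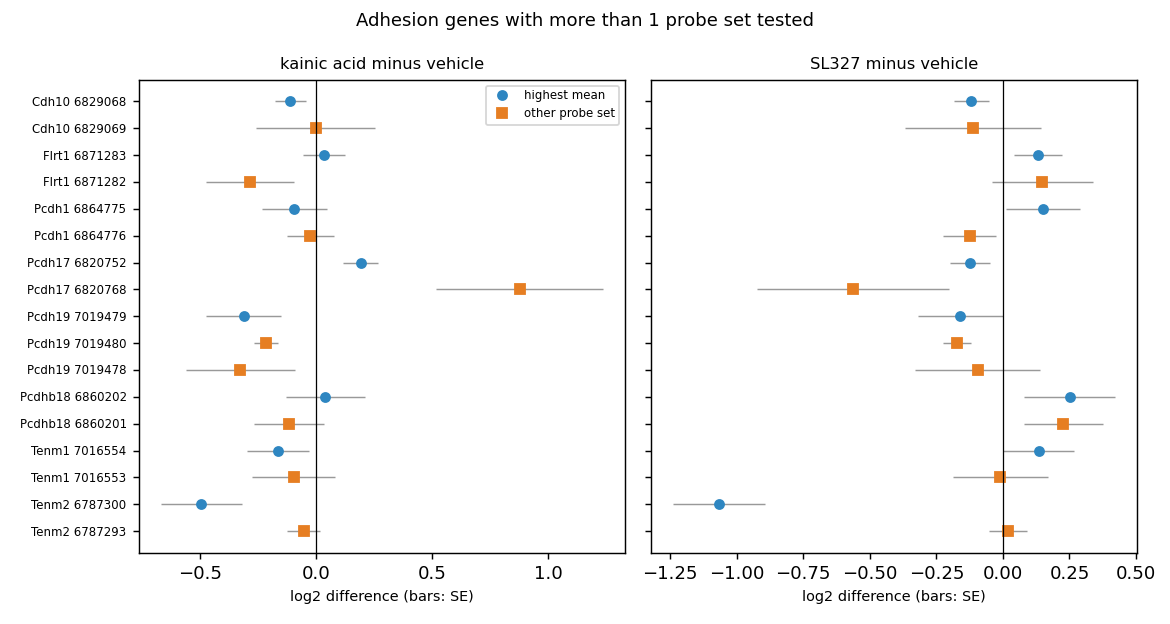
Log2 difference for kainic acid minus vehicle and SL327 minus vehicle of the 8 adhesion genes with more than 1 probe set tested, 17 probe sets in all. Circles are the probe set with the highest mean, squares the others, and bars ± 1 SE. The Tenm2 probe sets lie at -1.07 and 0.02 with SL327, and the Pcdh17 probe sets at 0.19 and 0.88 with kainic acid.

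Several probe sets per gene were the exception. Of 11 genes with more than 1, 8 had at least 2 tested. Pcdh19, a protocadherin of neurons linked to epilepsy in humans, had 3 probe sets tested, and they differed by -0.31, -0.21 and -0.32 with kainic acid. The middle one (7019480) passed the threshold (SE 0.05, adjusted p = 0.0111), but it was not the highest in mean and so is not among the counts above. In the probe set of the highest mean (7019479, -0.31, adjusted p = 0.193) kainic acid mice averaged 7.80, vehicle mice 8.11 and untreated mice 7.75. Vehicle mice there were 0.36 above untreated mice in limma (unadjusted p = 0.0321, adjusted p = 0.73). Untreated levels of the other probe sets are not given.

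The 28 genes under the filter were Cdh1, Cdh4, Cdh6, Cdh7, Cdh13, Cdh15, Cdh18, Cdh23, Pcdh7, Pcdh10, Pcdh15, Pcdh18, 10 beta-cluster protocadherins, Cntnap3, Cntnap4, Cntnap5c, Slitrk2, Slitrk5 and Adgrl2. With no filter, 0 of the 28 were called by limma in the comparisons with vehicle, where 3 or 4 had an unadjusted p under 0.05. Between SL327 with kainic acid and kainic acid 2 were called, the smallest adjusted p being that of Pcdh7 (0.008), and in the interaction 1, Cdh1 (0.0408). Of all 15417 probe sets in these fits without a filter 12.2% were called between the seizing groups and 2.74% in the interaction, and 13.3%, 2.97% and 0.48% for kainic acid, SL327 and both drugs over vehicle. Spread within groups was larger for the 52 genes tested, with a median SD of 0.123, than for all probe sets tested, with 0.086.

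Binding partners and relatives outside the naming rule were listed as 105 genes, of which 91 were in the table and 70 tested. With kainic acid 4 rose (5.71%) and 5 fell (7.14%) in limma, against the 7.41% and 12.2% of all probe sets given above. Ctnnd1, p120 catenin, which holds cadherins at the membrane, was at 8.99 ± 0.03 in kainic acid mice, 8.37 ± 0.18 in SL327 with kainic acid mice and 8.37 ± 0.01 in vehicle mice (SD, n = 3 each). It rose by 0.62 with kainic acid (adjusted p = 0.00013) and fell by 0.62 with SL327 in seizing mice (adjusted p = 0.00021). Adgrb1, an adhesion receptor of postsynaptic sites, was at 8.83 ± 0.05, 8.52 ± 0.02 and 8.50 ± 0.01 in the same groups, a rise of 0.33 (adjusted p = 4.4e-05) and a fall of 0.31 with SL327 (adjusted p = 0.00012). Ntrk3, a neurotrophin receptor that also binds a receptor tyrosine phosphatase, and Fat4, a giant cadherin, fell by 0.56 and 0.34 with kainic acid (adjusted p = 0.0099 and 0.028).

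In SL327 with kainic acid mice, set against kainic acid mice, 3 partners were higher (4.29%) and 4 lower (5.71%) in limma. Of all probe sets 13.1% were higher and 5.86% lower, so the lower share was near that of the table. Clstn3, a calsyntenin that binds neurexins, was 0.35 lower (adjusted p = 0.0038), and Lrfn5, a ligand of receptor tyrosine phosphatases, 0.26 higher (adjusted p = 0.014). With SL327 alone 1 partner was lower (1.43%, against 0.833% of all probe sets). This was Lrrc4, a netrin-G ligand of excitatory synapses, by 0.31 (adjusted p = 0.049). The interaction called 2 lower, Ctnnd1 (-0.49, adjusted p = 0.024) and Adgrb1 (-0.32, adjusted p = 0.003), and 1 higher, Elfn2, which binds metabotropic glutamate receptors across the synapse (0.22, adjusted p = 0.04). These are 2.86% and 1.43% of the partners tested, against 3.78% lower and 1.98% higher of all probe sets. Among 8 tested ephrins and Eph receptors, 0 passed the threshold in these comparisons. Values of the partners without the mouse with low immediate early genes are not given.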

How the data were processed

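Deposited values were log2 intensities made by the authors from Affymetrix Mouse Exon 1.0 ST arrays. RMA of the oligo package was used for this, with versions not given in the sources used here. They were used as deposited. The table appears already filtered on intensity, since the third-highest array of every probe set is at 6.42 or above, and array medians lie between 7.32 and 7.39. Arrays of a group correlated at a mean r of 0.958 to 0.975, and no arrays were identical. Their number limits precision.

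By the rule of the methods, annotated probe sets (15417 of 20372) above the array median, taken here over annotated probe sets, in at least 3 arrays were kept, leaving 8520. Because the table appears already filtered, this median may be higher than that of the study, and the filter stricter. The removal of categories other than main was not repeated, as the files name none, and arrays from later time points were not analysed here. Of all probe sets 14704 had 1 gene, 713 several and 4955 none.

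Group means of the 5 treatments were fitted with limma 3.58.1 in R 4.3.3 and moderated by eBayes, the degrees of freedom being 11 for the residuals and 3.2 for the prior. Contrasts were two-sided, with p adjusted by Benjamini and Hochberg over 8520 probe sets and a threshold of 0.05. Alternatives were other filters, scalings, controls, spread estimates and samples in the fit, a replicate block, and each array left out in turn. For the counts only, every probe set was also counted.

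Members and lists were chosen with earlier results of these data known. Genes named are those past the threshold in comparisons with vehicle or between the seizing groups, Tenm2 with both probe sets, the member with the highest mean of a family with none, up to 4 partners per contrast with the largest change, and Arc, Fos and Npas4. Others, such as Cdh2, Nlgn1, Pcdh19, Cdh1 and Pcdh7, were named after their values were seen. Motifs were searched on both strands, and the TATA and CCAAT letters were added after the windows were seen.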

Additional observations from a re-analysis of the deposited data

Results flagged for a closer look

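In 5 of the 52 genes tested 1 untreated mouse stood far from the other 3, as measured by its gap to the nearest divided by the range of the group, against Dixon's critical value. Chance alone gives this in about 1 of 20 groups. Lrrtm2 was high in replicate 2 (0.906), Nrxn2 high in replicate 1 (0.872), Pcdh19 low in replicate 1 (0.942), Pcdh8 high in replicate 3 (0.979) and Tenm1 high in replicate 3 (0.862). For Pcdh8 that mouse, at 7.17 beside 3 at 6.99, was still below every kainic acid mouse.

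The response to kainic acid differed with SL327 in limma's interaction for 4 genes, by -1.03 for Pcdh8, -0.52 for Adgrl4, -0.37 for Lrrtm2 and 0.45 for Lrrtm4 on the log2 scale. Without SL327 with kainic acid replicate 2 the values were -0.83, -0.56, -0.38 and 0.53, with adjusted p of 0.00638, 0.028, 0.0393 and 0.00844.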

How the results depend on the processing

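Of 21 calls of single genes, 8 held in every alternative run, namely Pcdh8, Lrrtm2 and Adgrl4 for kainic acid minus vehicle, Tenm2 for SL327 minus vehicle, Pcdh8, Lrrtm2 and Pcdh9 for SL327 with kainic acid minus kainic acid, and Pcdh8 for the interaction. No call reversed. Most often lost were Cdh11 with SL327 (15 of 25 alternatives), Pcdh17 with SL327 in seizing mice (11 of 23), Pcdhb12 (9 of 25) and Nlgn2 (8 of 25) with kainic acid. Without vehicle replicate 2 or 3, or SL327 with kainic acid replicate 1, Tenm2 with both drugs missed the threshold (adjusted p up to 0.0644), while its difference stayed between -1.13 and -0.996 in every alternative run. Tenm2 fell with kainic acid as well without untreated replicate 2 (adjusted p = 0.0397), kainic acid replicate 1 (-0.65, adjusted p = 0.0175) or SL327 replicate 1 (adjusted p = 0.0342).

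Genes lower with SL327 numbered 1 without the intensity filter, 1 with unnamed probe sets tested, and 1 with a replicate block. Fits to the groups of a contrast alone gave 1 higher with SL327, 2 lower with both drugs, and 0 higher and 3 lower for SL327 with kainic acid minus kainic acid. With untreated mice in place of vehicle, 7 were lower with kainic acid and 6 lower with both drugs. With both controls pooled, 7 were lower with kainic acid, 1 higher with SL327 and 5 lower with both drugs. With kainic acid, 24.8% of all probe sets were lower against untreated mice and 24.2% against both controls pooled. Shares of all probe sets for the other counts of this paragraph are not given, so these counts are not set against a background. The cause was not tested.

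With each array left out in turn, 3 to 5 were higher and 0 to 6 lower with kainic acid, 0 higher and 1 to 2 lower with SL327, and 0 to 1 higher and 0 to 2 lower with both drugs. The ranges were 0 to 1 higher and 3 to 6 lower for SL327 with kainic acid minus kainic acid, 0 to 1 minus SL327, 0 for vehicle minus untreated, and 1 to 5 for the interaction. Shares of all probe sets without each array are not given here. Same-numbered mice did not deviate together (r between -0.22 and 0.18, 5 of 30 pairs over 0.1), so the numbers do not pair them. With the replicate block, Pcdhb12 with kainic acid (adjusted p = 0.0763), Cdh11 (0.0589), Pcdh17 (0.0507) and the interaction of Lrrtm4 (0.0559) passed the threshold no longer.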
